A study of Caenorhabditis elegans with 2 samples.

Results

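The splicing factors and mog RNA helicases described here are 46 named genes of Caenorhabditis elegans, listed by name and looked up in the genome annotation, where all 46 were found among 19973 protein-coding genes. They encode spliceosome subunits, regulators of splice site choice and the RNA helicases of the mog group. The question was whether ZTF-25, whose name marks it as a zinc finger protein, was found at their promoters. It was mapped by chromatin immunoprecipitation and sequencing (ChIP-seq), which recovers the DNA that a protein is crosslinked to.

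Both samples were whole young adult worms at 63 hours of strain RW12287, in which CRISPR had inserted TY1, EGFP and 3xFLAG tags at the chromosomal ztf-25 gene (allele st12287), so all the worms carried the same insertion. The worms had been synchronised by starvation as L1 larvae, the chromatin was sonicated to 200 to 800 bp, and an antibody against GFP was used. The 2 samples are biological replicates of 1 group with no second condition, so the results are values and counts, with no test. The read depth is unknown, no untagged worms were analysed here, and a signal from whole animals cannot be assigned to a tissue.

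Splicing removes introns from pre-mRNA on the spliceosome, which is built from the U1, U2, U4, U5 and U6 ribonucleoproteins and many other proteins. DEAH-box helicases drive its rearrangements, SR and hnRNP proteins help to choose splice sites, and tissue regulators adjust that choice in neurons and muscle. The mog genes are named for masculinisation of the germline: hermaphrodites that lack them keep making sperm and do not switch to oocytes.

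A gene was counted as marked when the summit of a peak lay in its promoter window, from 1000 bp before to 500 bp after the 5′ end of any of its protein-coding transcripts. In the conservative list, whose 1092 peaks repeat between both libraries, 7 of the 46 genes (15.2%) were marked, against 2.81% of all protein-coding genes. These were mog-4, prp-19, hrpr-1, snr-2, uaf-1, snrp-200 and rsp-3. They fell in 7 of the 9 role groups with 1 gene each, and the U1 proteins and the tissue regulators had none. The 46 genes were chosen with earlier results of these libraries known, so the count is a description.

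The sequences under the peaks that the results turn on are shown first, read from the RefSeq copy of the ce11 assembly. The mog-4 peak had the highest signal in the thresholded lists and held repeated sequence. In its sequence the capitals mark the stretch that aligned in at least 50% of its other copies in the genome. Below it stand the copy with the highest signal and the near-identical copy with the lowest signal, both turned to the orientation of the mog-4 peak.
mog-4 peak, chrII:14561775-14561948, plus strand: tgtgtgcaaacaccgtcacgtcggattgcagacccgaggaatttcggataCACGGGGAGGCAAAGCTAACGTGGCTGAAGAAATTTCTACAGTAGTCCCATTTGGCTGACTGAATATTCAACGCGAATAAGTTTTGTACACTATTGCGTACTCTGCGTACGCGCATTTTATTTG
Highest copy, chrIV:9196385-9196504, minus strand: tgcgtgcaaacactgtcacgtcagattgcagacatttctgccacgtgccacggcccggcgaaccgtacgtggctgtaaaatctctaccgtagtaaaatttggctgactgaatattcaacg
Near-identical copy, chrV:17210330-17210451, minus strand: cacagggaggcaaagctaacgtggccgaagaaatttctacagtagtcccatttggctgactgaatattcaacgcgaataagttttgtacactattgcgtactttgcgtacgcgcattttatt

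The prp-19 peak is shown up to the base before the neighbouring gene K10D2.5, together with a 30-base stretch that spans the first base of that gene. The snrp-200 stretch comes from the start of that gene. In both stretches the capitals mark the word TCGGCCA or its reverse complement TGGCCGA, which these 2 peaks shared. The uaf-1 peak is shown for its part upstream of the gene, since this sequence also occurs many times on its chromosome.
prp-19 peak, chrIII:5172607-5172719, plus strand: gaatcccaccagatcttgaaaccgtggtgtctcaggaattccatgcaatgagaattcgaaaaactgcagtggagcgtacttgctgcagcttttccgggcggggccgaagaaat
prp-19 word, chrIII:5172710-5172739, plus strand: ccgaagaaatgTCGGCCAtgagactgggga
snrp-200 word, chrII:12736857-12736886, minus strand: tacaaactacaaTGGCCGAcgagctagccc
uaf-1 peak, chrIII:1076556-1076734, minus strand: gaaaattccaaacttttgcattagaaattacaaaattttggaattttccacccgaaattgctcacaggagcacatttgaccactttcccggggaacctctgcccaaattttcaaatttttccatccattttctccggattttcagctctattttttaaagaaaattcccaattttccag

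**Figure D1:**
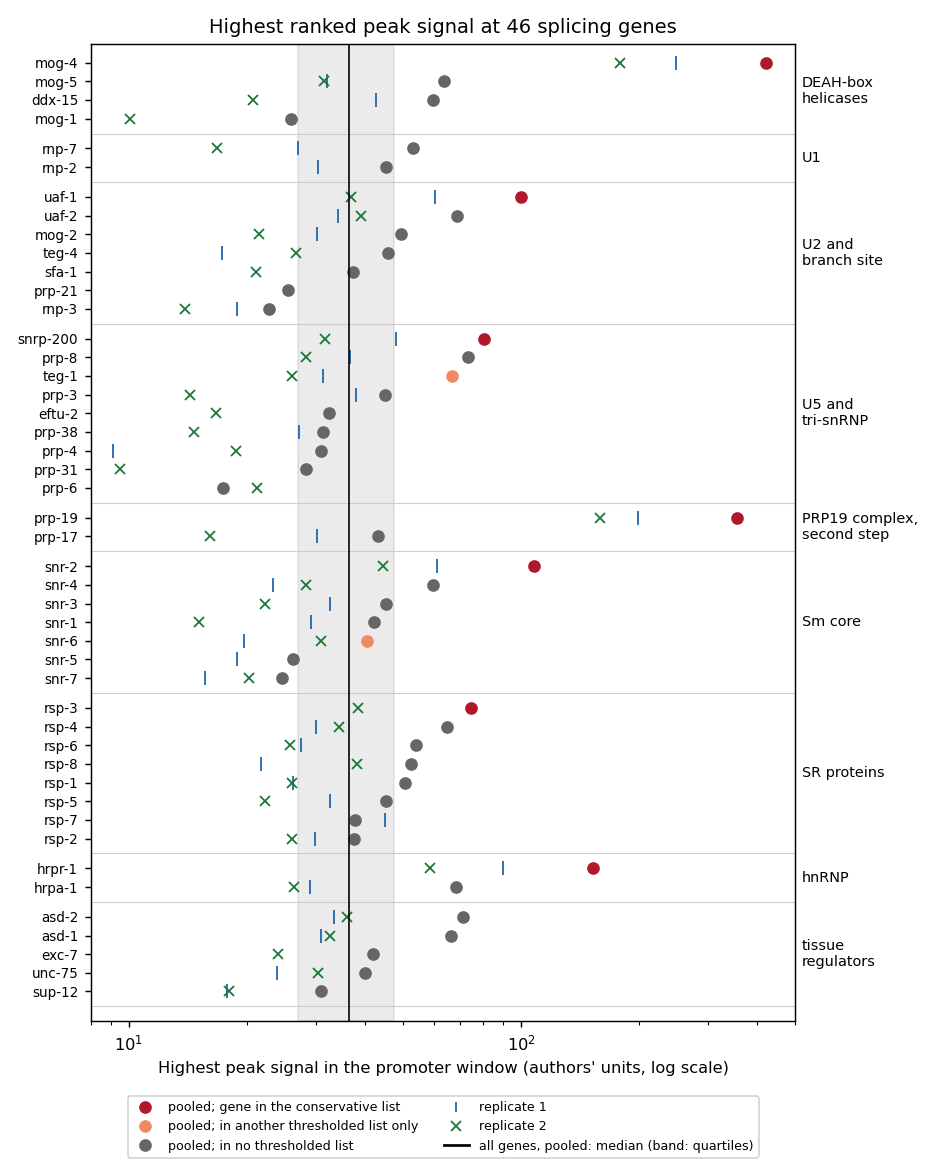
Highest peak signal in the promoter window of each of the 46 genes (x axis, the authors' units, log scale), by role group (y axis). Dots are the ranked list of both libraries, bars replicate 1 and crosses replicate 2, each the highest peak of its own ranked list, which need not be the pooled one, and the line and band are the median and quartiles of all genes with a ranked peak. mog-4 (422) and prp-19 (356) stand apart from hrpr-1 (152) and from the rest, and 22 of the 46 dots lie above the band.

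The DEAH-box helicases ranged from the strongest peak of the thresholded lists to a weak one. At mog-4 (WBGene00003392, chromosome II, 14552504 to 14561599, minus strand), the worm counterpart of Prp2, which prepares the spliceosome for its first catalytic step, the peak had a signal of 422 in the conservative list. The signal is the authors' own peak value, on a scale that is not stated. In the ranked lists of the single libraries the value was 248 in replicate 1 and 178 in replicate 2. The peak ranked first in each of the 4 thresholded lists. Its summit lay in intergenic sequence 267 bp upstream of the gene, and no other protein-coding gene had it in its window.

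The other 3 helicases were in no thresholded list. mog-5, the counterpart of Prp22, which releases spliced mRNA, had a signal of 63.6, with 32.0 in replicate 1 and 31.5 in replicate 2. Its irreproducible discovery rate (IDR), which is low where the rank of a peak repeats between libraries, was 0.0338, above the limit of 0.01 that the peaks of the conservative list met. ddx-15, the counterpart of Prp43, which takes spent spliceosomes apart, had 59.5 at an IDR of 0.105, and its replicates differed more, at 42.7 and 20.7. mog-1, the counterpart of Prp16, which acts before the second step, had 25.8 at an IDR of 0.455, below the median of all genes, and no summit in its window in the ranked list of replicate 1. The 3 mog helicases therefore spanned 25.8 to 422.

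The second strongest peak of the conservative list lay at prp-19 (WBGene00020423, chromosome III, 5169933 to 5172045, minus strand), a ubiquitin ligase that gives its name to a complex of the active spliceosome. Its signal was 356, with 198 in replicate 1 and 159 in replicate 2. The summit was 658 bp upstream of prp-19 but 17 bp upstream of K10D2.5, which is read in the opposite direction. It also lay 736 bp upstream of emb-1, a subunit of the anaphase-promoting complex, so the windows of 3 genes held this 1 peak. The data do not assign it to one of them. prp-17, which acts at the second step, had 43.2 and was in no thresholded list.

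Both hnRNP genes were above the quartile band, and 1 was marked. hrpr-1 (WBGene00002000, chromosome I, 12060271 to 12064897, minus strand), which encodes a protein of the hnRNP R and Q family, had a signal of 152, with 90.1 in replicate 1 and 58.5 in replicate 2. It was in all 4 thresholded lists, as were mog-4 and prp-19, so 3 of the 46, against 0.676% of all genes. Its summit, 998 bp upstream, lay 2 bp inside the edge of the window. That summit was within a valine tRNA gene (WBGene00014411, 12065865 to 12065937) and 467 bp downstream of a 5′ end of F58D5.2, which had the same peak in its window. hrpa-1, an hnRNP A homologue, had 68.0 at an IDR of 0.0824, with 29.0 and 26.4 in replicates 1 and 2.

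Of the 7 Sm core genes, whose products form the ring on the U1, U2, U4 and U5 RNAs, only snr-2 was in the conservative list. snr-2 (WBGene00004915, chromosome I, 13339397 to 13340224, plus strand) encodes SmB and had a signal of 108, with 61.0 in replicate 1 and 44.5 in replicate 2. It was in the list of replicate 1 and not in that of replicate 2, where its IDR was 0.0163. An IDR from the list of 1 library cannot measure repetition between the 2 libraries. It is therefore a different measure from the IDR of both libraries, which was 0.00135 here. The summit was 349 bp upstream of snr-2 and 117 bp upstream of W08E3.4 on the opposite strand. snr-6, which encodes SmE, was in the list of replicate 1 alone, through a peak of signal 12.8 in its coding sequence that ranked 508 of the 515 peaks there. In the ranked list of both libraries the same summit had 40.4 at an IDR of 0.538. A conservative peak of 77.3, above that value of both libraries, had its summit 513 bp downstream of the 5′ end of snr-6, just outside the window of 500 bp. That position is 56 bp past the 3′ end of snr-6 and in the 3′ UTR of pie-1, a germline regulator. The other Sm genes ran from 24.6 at snr-7 (SmG) to 59.6 at snr-4 (SmD2).

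Among 7 genes of the U2 particle and the branch site, uaf-1 was marked. uaf-1 (WBGene00006697, chromosome III, 1062794 to 1076555, minus strand) encodes the large subunit of U2AF, which binds the 3′ splice site, and had a signal of 99.99, with 60.2 in replicate 1 and 36.8 in replicate 2. The summit was 42 bp upstream and in the window of no other gene, and neither single-replicate list held it. In the ranked list of both libraries the IDR was 0.00252. In those of the single libraries, where it does not compare the 2 libraries, it was 0.673 in replicate 1 and 0.252 in replicate 2. uaf-2, the small subunit of U2AF, had 68.7 at an IDR of 0.0270, with 38.99 in replicate 2. Its highest peak in replicate 1, at 34.2, was a different one, with its summit at −477 bp from a 5′ end, where the pooled one lay 284 bp downstream. The rest of the group was lower, from 22.7 at rnp-3, a U2B″-type protein, and 25.5 at prp-21, the SF3A1 counterpart, to 49.5 at mog-2, which encodes a protein of the U2 particle itself. prp-21 had no summit in its window in the ranked list of either single library. The 2 genes of U1 proteins, rnp-2 and rnp-7, had 45.3 and 53.1.

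Of 9 genes of the U5 particle and the tri-snRNP, 1 was in the conservative list and 2 in the combined list. snrp-200 (WBGene00012896, chromosome II, 12726963 to 12736910, minus strand) encodes the helicase Brr2, which unwinds U4 from U6, and had a signal of 80.5, with 47.9 in replicate 1 and 31.6 in replicate 2. Its summit was 6 bp downstream of the 5′ end, in the 5′ UTR. Neither single-replicate list held this peak. In the ranked list of both libraries its IDR was 0.00799. In those of the single libraries, where the IDR does not compare the 2 libraries, it was 0.797 in replicate 1 and 0.650 in replicate 2. teg-1, the counterpart of the U5-associated protein CD2BP2, was in the combined list alone, with a signal of 66.5. The IDR of 0.0685 for this peak is that of the ranked list of both libraries, not of the combined list. The summit lay in an intron 188 bp upstream of one of the 5′ ends of teg-1. It was also 327 bp upstream of mcm-10, a DNA replication gene. prp-8, which encodes the U5 protein at the catalytic centre, had 73.4 at an IDR of 0.0296 and was in no thresholded list. prp-6, a scaffold of the tri-snRNP, had the lowest value of all 46 genes, 17.3.

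Of the 8 SR genes, whose proteins bind exons and recruit the splicing machinery, rsp-3 was marked. rsp-3 (WBGene00004700, chromosome III, 12686182 to 12687922, minus strand), the counterpart of SRSF1, had a signal of 74.3 at an IDR of 0.00859, with 38.4 in replicate 2 and no summit in its window in the ranked list of replicate 1. The ranked list of both libraries gives this peak 37.1 and 38.4 in its library columns, so both libraries had a similar value there. The columns carry no replicate number. At mog-4 and prp-19 the first column equals the replicate 1 value and the second the replicate 2 value. By that match 37.1 is from replicate 1, although the ranked list of that library alone had no summit in the window. The summit was in a coding exon, 275 bp downstream of a 5′ end, and 677 bp upstream of spin-4. A second conservative peak of 87.8 lay further inside the gene, 1273 bp from its start, outside the window, and the combined list held only that one at rsp-3. rsp-4 had 64.8 at an IDR of 0.0385, and the other 6 SR genes ran from 37.4 to 54.1.

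None of the 5 tissue regulators had a summit in its window in a thresholded list. asd-2, a STAR-family RNA-binding protein of muscle, had 71.0 at an IDR of 0.0182, with 33.3 in replicate 1 and 35.9 in replicate 2. With 5 different 5′ ends, asd-2 had the widest window of the 46 genes, 5575 bp. The summit lay inside the gene, 23 bp upstream of one of these 5′ ends. asd-1, of the RBFOX family, had 66.1 at an IDR of 0.0354, with 30.9 and 32.6. exc-7 (ELAV family), unc-75 (CELF family) and sup-12 had 41.9, 39.97 and 30.9.

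**Figure D2:**
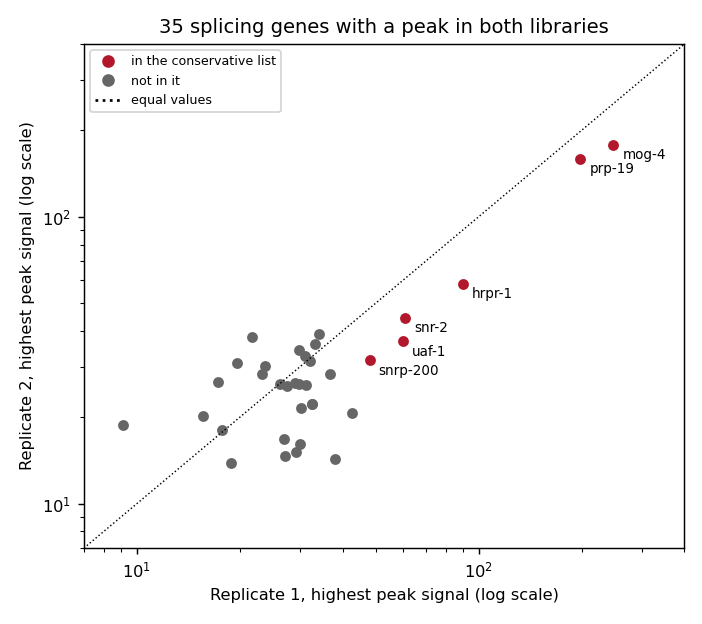
Highest peak signal in the promoter window in replicate 1 (x axis) and replicate 2 (y axis), both on log scales, for the 35 genes with a ranked peak in both libraries. For 16 of them it is not the same peak, and the share over all genes was not counted. mog-4 and prp-19 are the highest in both, hrpr-1 follows them in both, and the genes outside the conservative list do not pass 42.7 in replicate 1 or 38.99 in replicate 2.

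Between the IDR limit of 0.01 and a looser one of 0.1 stood 8 genes. The IDR of their highest peaks ran from 0.0182 at asd-2 to 0.0824 at hrpa-1. With peaks of the ranked list at an IDR of 0.1 or lower, 15 of the 46 genes were marked, against 10.8% of all genes. The 8 added were asd-1, asd-2, hrpa-1, mog-5, prp-8, rsp-4, teg-1 and uaf-2. In the combined list the count was again 7 of 46, with teg-1 in and rsp-3 out, against 3.62% of all genes. In the list of replicate 1 it was 5 (background 1.39%) and in that of replicate 2 it was 3 (background 0.856%). At least 1 of the 4 lists held 9 of the 46, against 3.95% of all genes.

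**Figure D3:**
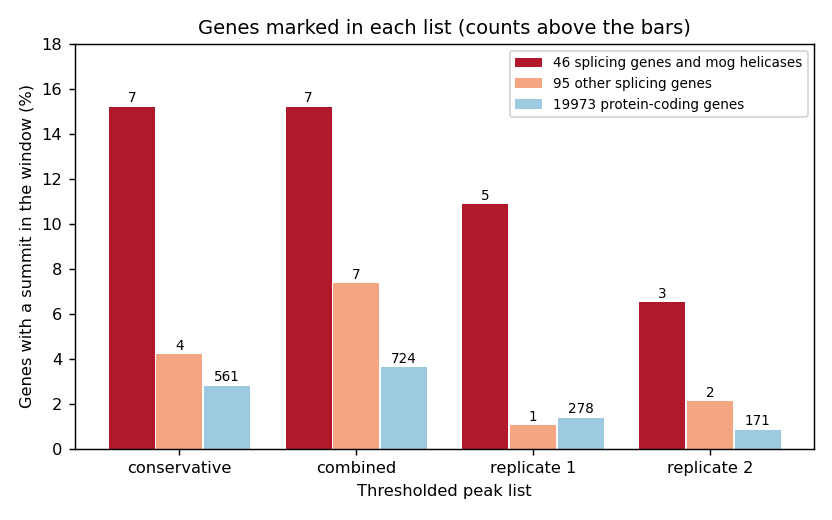
Share of genes with a summit in the promoter window (y axis, percent) in each of the 4 thresholded lists, for the 46 genes, for 95 other splicing genes and for all 19973 protein-coding genes, with counts above the bars. The share of the 46 falls from 15.2% in the conservative and combined lists to 6.52% in the list of replicate 2, and the background falls with it from 2.81% to 0.856%.

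All 46 genes had at least 1 summit of the ranked list in their window, against 82.8% of all genes. That list has no threshold, and it held 104189 peaks. The median of the highest signals was 45.5 for the 46 genes, with a range of 17.3 to 422, and 36.4 for the 16533 genes with such a peak. The highest 25% of those genes began at 47.4 and held 22 of the 46. The highest 10% began at 59.7 and held 15. In replicate 1, 17 of the 38 genes with a peak were in the highest 25% of that library, and in replicate 2 it was 21 of 42. Windows with several 5′ ends are wider: the third quartile of window length was 2004 bp for the 46 genes and 1504 bp for all genes, with medians of 1501 bp in both, and the median number of ranked summits was 3 and 2. The part of window length in the higher values was not tested.

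Over the 35 genes with a value in both libraries, Spearman's rho between the replicates was 0.50, and 0.40 without mog-4 and prp-19. Over 9536 genes of the whole annotation it was 0.35. For 16 of the 35 genes the highest peaks of the replicates did not overlap, so the values compare windows and not single peaks. The share over all genes was not counted, so this number cannot be read as a trait of these genes. Some points are not independent: snr-3 and rsp-5 share their peaks, and rsp-1 and rsp-2 share that of replicate 2. The points of each library share its depth and its peak calling, so these values only describe how far the order repeats.

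**Figure D4:**
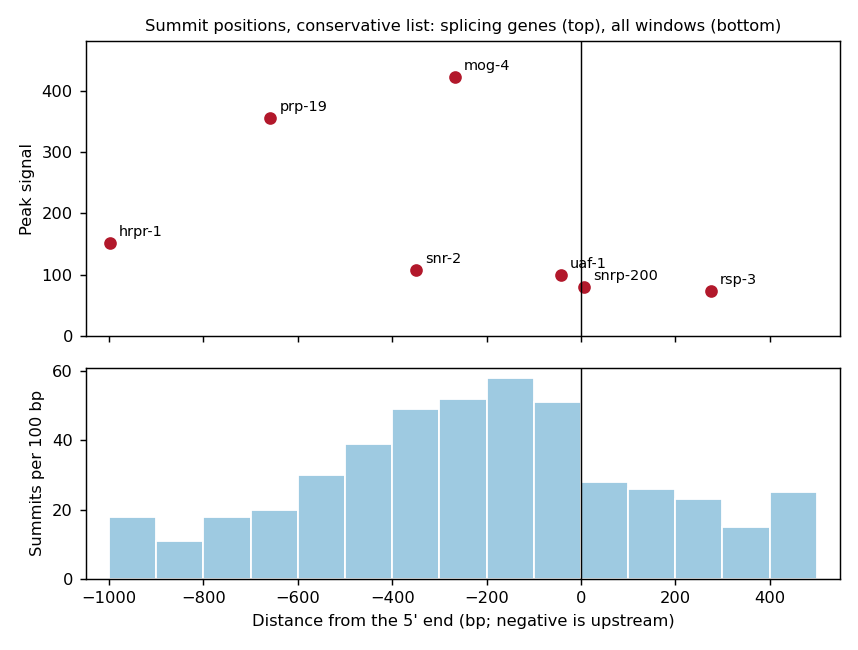
Summits of the conservative list by distance from the 5′ end (x axis, bp, negative is upstream), with the peak signal of the 7 marked genes (upper panel, points) and the number of all summits in promoter windows per 100 bp (lower panel, bars). Of the 7 summits, 5 lie upstream, from −998 bp at hrpr-1 to −42 bp at uaf-1, while the bars are highest, at 58, between −200 and −100 bp.

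Of the 7 marked genes, 4 shared the peak with a neighbour: prp-19, hrpr-1, snr-2 and rsp-3. When a peak was given only to the gene with the nearest 5′ end, 4 of the 46 were marked: mog-4, rsp-3, snrp-200 and uaf-1, against 4.84% of all genes, since each peak then counts at any distance. With a window of 500 bp upstream to 200 bp downstream it was mog-4, snr-2, snrp-200 and uaf-1, against 1.78%. mog-4, snrp-200 and uaf-1 were marked under both. In the narrow window the highest ranked signal was only 22.5 at prp-19 and 41.3 at hrpr-1, while mog-4, snr-2, uaf-1 and snrp-200 kept their values. With a window reaching 2000 bp upstream, snr-3, the gene of SmD1, was added for 8 of 46, against 3.94% of all genes. The added peak, of signal 81.5, lies in the 3′ UTR of rsp-5, the neighbour of snr-3. Counting any overlap of a peak with the window added snr-6 in its place, for 8 against 3.09%. Using only the 5′ end of the gene record left the 7 genes as they were, against 2.54%. Without peaks at small noncoding RNA genes 6 were left, hrpr-1 being lost, against 2.21%. Of the 10899 genes with a symbol other than a sequence name, 3.22% were marked.

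Worm genes are often transcribed together in operons, so genes read in the same direction and separated by at most 300 bp were also looked at, by distance alone. Of the 46 genes, 7 had such a gene upstream. prp-38, a tri-snRNP protein with 31.3 in its own window, lies 106 bp behind plrg-1, a gene of the PRP19 complex whose window held a conservative peak of 108. snrp-200 lies 121 bp behind pisy-1, a phosphatidylinositol synthase gene with 50.8, lower than snrp-200 itself. Scoring each gene by the first gene of its run gave 7 of 46, with prp-38 in and snrp-200 out, against 3.17% of all genes. rnp-3 follows rnp-2 after 72 bp, sfa-1, the branch point binding protein, follows cyn-13 and uaf-2, and none of these had a thresholded peak. Some peaks lay at the far end of a gene. The peak of 81.5 that the wider window gave to snr-3 had its summit 1166 bp into the 1176 bp of rsp-5, and counting summits anywhere in a gene or its window gave 8 of 46, with rsp-5 added, against 4.44%. In the combined list, one of 69.3 was 879 bp into the 898 bp of snr-1. That list also had peaks outside the windows in unc-75 (70.8, 6006 bp into the gene) and hrpa-1 (61.0, 1453 bp into the gene).

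The mog-4 peak sequence occurs elsewhere. Its bases 51 to 174, with the summit at base 92, form the stretch that aligned in at least 50% of the other copies. In a blastn search 24 other places aligned over at least 70 bp, at 71.2 to 99.2% identity. Of these, 9 had a conservative peak and 6 had no peak in the ranked list. The 18 with one ranged from 28.6 to 294 in signal, all below mog-4. The closest copies were not the strongest. The 7 with at least 95% identity had 28.6 to 181, with a median of 59.98, and 2 of them were in the conservative list. The 17 with lower identity held 7 conservative peaks and reached 294. All 6 copies without a ranked peak were also among these 17, and the 7 near-identical copies each had one.

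The copy with 294, on chromosome IV and 852 bp from the nearest 5′ end, that of C46C2.7, matched at 75%. It was the only one of the 24 whose alignment began at the first base of the mog-4 peak. The near-identical copy printed above from chromosome V (97.5%) had 28.6. At the mog-4 peak 49.3% of its 31-base words occurred once in the genome, against a median of 95.1% over all conservative peaks. How reads that fit several places were treated is not given in the sources used here, and the part of this in the signals was not tested.

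**Figure D5:**
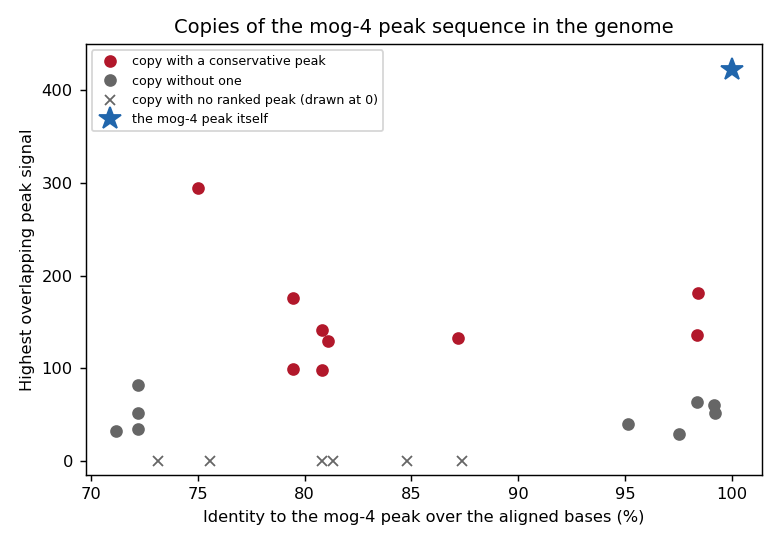
Highest signal of a ranked peak overlapping each of the 24 other copies of the mog-4 peak sequence (y axis, the authors' units) against percent identity over the aligned bases (x axis). Crosses drawn at 0 are the 6 copies with no ranked peak, all under 95% identity, and the star is the mog-4 peak at 422. The 7 copies with at least 95% identity lie between 28.6 and 181, and the highest copy, at 294, has 75%.

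Repeated sequence was common in these data: 60.3% of conservative peaks had at least 1 other copy by the same search, and 48.1% of those away from small noncoding RNA genes. The uaf-1 peak had 55 copies, all on chromosome III, and none of them carried a conservative peak. The hrpr-1 peak had 22 copies, of which 11 did. The remaining 4 peaks, at prp-19, snr-2, snrp-200 and rsp-3, had none of at least 70 bp. The prp-19 peak had 14 shorter alignments elsewhere, and the snr-2 peak had 4.

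Words of 7 bases were searched on both strands within 50 bp of each of the 7 summits. All but the last one given here had been seen earlier at summits of these data. TCGGCCA was at prp-19 and snrp-200, against 7.42% of all conservative summits and 0.894% of all annotated 5′ ends. At prp-19 it began 18 bp from the summit, in the 5′ UTR of K10D2.5. At snrp-200 it lay in the first coding exon. The other words found were at hrpr-1 alone among the 7, all within the tRNA gene. GTGGTTA was there, against 8.52% of conservative summits and 0.614% of 5′ ends. It overlapped the reverse complement of AACCACT, which was at 9.52% of conservative summits and 0.915% of 5′ ends. GGTTCGA, also in the hrpr-1 peak, was at 16.4% and 0.607%. The last word, GAGAGAG, was at none of the 7, against 3.21% of conservative summits and 1.89% of 5′ ends. mog-4, snr-2, uaf-1 and rsp-3 held none of these words in the window.

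Of a further list of 106 symbols of spliceosome and splicing genes, 95 were in the annotation, and 4 of these (4.21%) were marked in the conservative list against 2.81% of all genes. smn-1, the survival motor neuron gene, which loads Sm rings on snRNAs, had the highest signal, 129, with 85.3 in replicate 1 and 46.8 in replicate 2. Its summit was 54 bp from the 5′ end of klp-16, a kinesin gene, and close to the microRNA gene cel-mir-4932. plrg-1 and cdc-5L, both of the PRP19 complex, had 108 and 98.3, and smu-2, a splicing factor of the RED family, had 78.5. The combined list marked 7 of the 95 (7.37%, against 3.62% of all genes). The list of replicate 1 marked 1 (1.05%), below the background of 1.39%, and that of replicate 2 marked 2 (2.11%, against 0.856%). With peaks of the ranked list at an IDR of 0.1 or lower, 21 of the 95 (22.1%) were marked, against 10.8% of all genes. The median signal over the 88 with a ranked peak was 44.4, close to the 45.5 of the 46 genes.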

How the data were processed

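ChIP-seq of 2 biological replicates gave 8 deposited peak lists on ce11: conservative, combined and 1 for each replicate, all thresholded, and ranked lists. The ranked lists read here were 1 of both libraries and 1 for each replicate. Per the deposited README texts, they derive from alignments and a control file. The sources used here name no aligner or peak caller. The signal value of each deposited peak is the authors', on a scale not stated. The deposited score derives from the IDR and goes up to 1000. The −log10 of the global IDR, deposited by the authors in the ranked lists, was converted here to the IDR. Signals were ranked within a list. Values from different lists stand side by side in the text and figures, on scales that may not match.

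Genes came from Ensembl release 115 (WBcel235, which is ce11), and both sequence and tRNA isotypes from RefSeq. Positions are 1-based. Counts were made with Python 3.11.15, pandas 2.3.3 and numpy 2.4.6, and copies found with blastn 2.17.0 (E-value limit 1e-5, at least 70 bp aligned). The summit assignment was checked on simulated data. A peak counted as at a small noncoding RNA gene (tRNA, snoRNA, snRNA or rRNA) when its summit lay within 200 bp of one.

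The members, lists and words were chosen with earlier results of these data known. Described are all members in a thresholded list, the 6 others with the highest signal and the 4 with the lowest, marked genes of the further list, and neighbours sharing a summit. Other members are named to complete a role group, after their values were seen. Alternatives were other lists, IDR limits, windows, 5′ ends, overlaps and assignments. The same-strand runs and gene bodies were added after the data were seen, as were the copies.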

Additional observations from a re-analysis of the deposited data

How the results depend on the processing

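The count of 7 marked genes ranged from 3 to 15 over 13 alternatives, and 9 of them stayed within 1.5 times of it. It was 5 without replicate 2 and 3 without replicate 1. It was 15 at an IDR of 0.1, 4 with the 500 to 200 bp window and 4 with nearest genes only. The median signal of 45.5 was 37.3 in the narrow and 51.7 in the 2000 bp window. It was 29.4 and 26.1 in the library columns of the ranked list, and 30.2 and 26.1 in the ranked lists of single replicates, whose scales differ from that of the pooled list. The 7 role groups with a marked gene became 4 and 3 without one or the other replicate. The 4 further splicing genes became 7 in the combined list and 1 and 2 in the replicate lists. The 561 marked among all genes became 278 and 171 there. The causes were not tested. No paired analysis was possible because there is only 1 group. The files hold no read counts, so a weak or missing peak cannot be told apart from low depth. The list of each replicate rests on 1 library.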
